A study of Mus musculus with 2 samples.

Results

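The genes described here are 38 genes of glycolysis and of the hypoxia response, of 32285 gene models in the count matrices. They were chosen by symbol, with a minimum of 50 unique molecular identifiers (UMIs, each of which stands for 1 captured RNA molecule) over both matrices, and all 38 of 38 met it; 14172 gene models in all did. By role they comprised 4 transporters of glucose or lactate, 16 glycolytic enzymes, 3 regulators of glycolytic flow, 4 genes of the hypoxia-inducible factor (HIF) itself or of the enzymes that mark it for destruction, and 11 hypoxia targets.

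The study treated tumour-bearing mice with cepharanthine, a plant alkaloid, or with its vehicle, and sequenced single cells of the tumours on a droplet platform that counts the 3′ ends of transcripts. Each arm gave 1 library, called CEP for cepharanthine and Vehicle for its control (spelled "Vehide" in the label). The labels give 5 biological replicates per group but tie no cell to an animal, and they name no strain, age, tumour line, dose or day. The cells had been selected for the leukocyte surface protein CD45, so every epithelial cell described below came through that selection. With 1 library per group there is no replicate error and no test, and the 95% intervals given are exact intervals (Poisson for a level, conditional binomial for a ratio, Clopper-Pearson for a share) that cover counting error only.

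Glycolysis splits glucose into pyruvate in the cytosol, and lactate dehydrogenase and a lactate exporter let it run without the mitochondria. When oxygen is low, prolyl hydroxylases cease to mark the alpha subunits of HIF for destruction, and HIF then binds a short motif near many of these genes and raises their transcription. In tumours, cells far from vessels use this response, and neutrophils are known to rely on glycolysis in most tissues.

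Cells were put into 5 gates by raw UMIs of a few genes: macrophage (C1qa, C1qb and C1qc, at least 10), neutrophil (Csf3r and Cxcr2, at least 1, with under 3 of C1q), T cell (Cd3d, Cd3e and Cd3g, at least 2, with under 3 of C1q), dendritic cell (Flt3, at least 1, with under 10 of C1q) and epithelial (Krt8 and Krt18, at least 10, with under 10 of C1q). The CEP and Vehicle libraries held 4139 and 4594 macrophage-gate cells, 1649 and 2105 neutrophil-gate cells, 171 and 262 T cell-gate cells, 91 and 96 dendritic-gate cells, and 789 and 113 epithelial-gate cells. Each gate held UMIs of all 8 markers of its own class. The macrophage gate also held UMIs of all 8 neutrophil, T cell, dendritic and epithelial markers, so presence alone does not set the gates apart. Csf3r and Cxcr2 are both neutrophil markers and genes of that gate. Summed over 8 epithelial markers, the epithelial gate held 7559 counts per 1000000 UMIs (CPM) in CEP and 8522 CPM in Vehicle. These markers include Krt8 and Krt18, which define the gate, so part of that sum was fixed by the rule. The CD45 gene Ptprc stood at 1.08 and 2.46 CPM in the epithelial gate against 227 and 251 CPM in the macrophage gate. The T cell gate held 1718 CPM in CEP and 1851 CPM in Vehicle over its own 8 markers. It held far more neutrophil-marker RNA, at 27586 CPM in CEP and 40916 CPM in Vehicle over 8 markers. Of its cells, 22 of 171 in CEP and 29 of 262 in Vehicle met another gate too. The libraries shared 136 cell barcodes.

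The HIF-binding core motif ACGTG was looked for, on either strand, in RefSeq promoter windows (GRCm38.p6) that run from 250 bases before to 50 bases after a transcription start. Of the 38 genes 34 had a window, matched by symbol or synonym, and 25 of these (73.5%) held the motif, against 29.1% of the 10741 genes with at least 50 UMIs and a window and 21.8% of all 27025 genes. The motif lies within the E-box CACGTG, which other factors bind and which reads as ACGTG on each strand, so that 1 E-box counts here as 2 overlapping matches. A match is a description of the letters and not a bound site. Stretches of 5 windows are shown because the values below turn on these genes: Ldha went with the hypoxia targets most closely of the 22 genes ranked against them in the neutrophil gate, Bnip3 and Ero1l were among the targets most tied to one another, Pgk1 is a textbook HIF target, and Slc16a3 holds the motif but did not climb with the hypoxia targets in the neutrophil gate. Each is 100 bases upstream of the start, 5′ to 3′ on the gene's strand, in no exon of the GENCODE M21 annotation (for Ldha, Ero1l and Slc16a3 that annotation starts the gene further upstream), with every motif match in capitals.
Ldha, chr7:46845704-46845803, plus strand: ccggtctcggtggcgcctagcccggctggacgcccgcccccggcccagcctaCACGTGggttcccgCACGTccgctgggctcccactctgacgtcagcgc
Bnip3, chr7:138909520-138909619, minus strand: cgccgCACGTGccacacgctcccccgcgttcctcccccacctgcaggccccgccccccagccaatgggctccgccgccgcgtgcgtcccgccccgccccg
Ero1l (RefSeq symbol Ero1a), chr14:45318573-45318672, minus strand: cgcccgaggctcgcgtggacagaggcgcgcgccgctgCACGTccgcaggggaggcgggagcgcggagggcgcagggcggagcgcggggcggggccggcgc
Pgk1, chrX:106186950-106187049, plus strand: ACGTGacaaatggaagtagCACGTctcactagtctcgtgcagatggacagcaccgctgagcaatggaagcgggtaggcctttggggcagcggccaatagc
Slc16a3, chr11:120948953-120949052, plus strand: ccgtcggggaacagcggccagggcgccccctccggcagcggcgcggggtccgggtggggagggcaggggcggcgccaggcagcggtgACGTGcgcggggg
The Ldha window held 5 matches, 3 of them in the stretch shown, and 2 E-boxes in all. The Bnip3 window held 1 E-box and no other match, the Ero1l window 1 match, and the Pgk1 window 2 matches outside any E-box. The Slc16a3 window held 2 matches, of which 1 is in the stretch shown.

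The neutrophil gate had the highest level of 23 of the 38 genes in both libraries, and the epithelial gate had the highest level of 7 in both. The same count was not made over all genes, so these numbers have no share of all genes beside them. Some leads were slight: in CEP the neutrophil level was 1.001-fold (Pkm) and 1.009-fold (Egln1) that of the next gate. The gate with the highest level was the same in both libraries for 33 of the 38 genes. A level here is a share of all UMIs of a gate, and each UMI counts 1 molecule whatever the gene's length, so levels of different genes can be set side by side without scaling by length. Neutrophil-gate cells held few UMIs, 1748 in CEP and 1840 in Vehicle at the median, so shares and counts per cell gave different orders. The 16 glycolytic enzymes made up 11280 CPM in CEP and 11871 CPM in Vehicle in the neutrophil gate, against 7729 and 8261 CPM in the macrophage gate. Counted per cell, there was a mean of 30.6 and 31.4 glycolytic-enzyme UMIs in a neutrophil-gate cell, 80.4 and 95.3 in a macrophage-gate cell, and 255 and 222 in an epithelial-gate cell. Several glycolytic genes, among them Gapdh, Aldoa, Pgk1, Eno1 and Ldha, have near-identical pseudogene copies in the mouse, and the sources used here do not say how reads shared with them were counted.

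**Figure D1:**
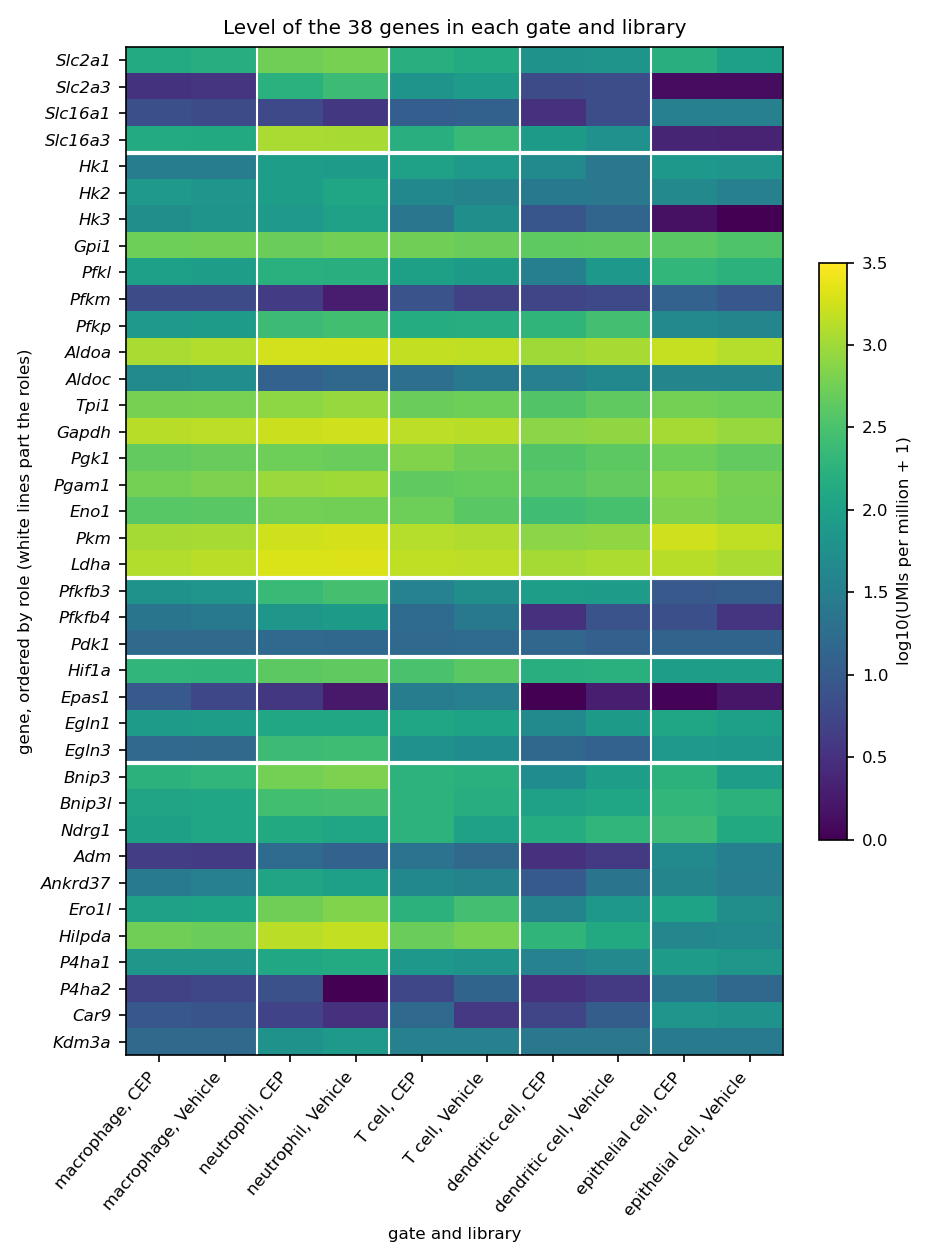
Level of each of the 38 genes (rows, grouped by role) in each gate and library (columns), as log10 of CPM plus 1; brighter is higher. The neutrophil columns are the brightest for Slc2a1, Slc16a3, Bnip3, Ero1l and Hilpda, and the columns of the CEP and Vehicle libraries of 1 gate look alike.

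Among the transporters, Slc2a1, which encodes the basal glucose transporter GLUT1 (chromosome 4, 119108711 to 119137983), stood at 554 CPM in CEP and 613 CPM in Vehicle in the neutrophil gate. The next gate in order was at 157 CPM in CEP (T cell) and 153 CPM in Vehicle (macrophage). Slc2a3, the high-affinity glucose transporter GLUT3, was at 169 and 246.3 CPM in the neutrophil gate, at 2.27 and 2.44 CPM in the macrophage gate and at 0.316 and 0.307 CPM in the epithelial gate. Of the UMIs of the pair, Slc2a3 gave 23.3% in CEP and 28.7% in Vehicle in the neutrophil gate and 1.64% and 1.57% in the macrophage gate. GLUT3 was thus a sizeable share of the glucose transporter RNA in the neutrophil and T cell gates, and a small one in macrophage and epithelial cells.

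The lactate transporters split the gates further. Slc16a3, which encodes the exporter MCT4 (chromosome 11, 120948480 to 120960868), was at 1132 CPM in CEP and 1088 CPM in Vehicle in the neutrophil gate, at 137 and 134 CPM in the macrophage gate, and at 1.31 and 1.23 CPM in the epithelial gate. A UMI of Slc16a3 was seen in 74.7% and 73.7% of neutrophil-gate cells at a median depth of 1748 and 1840 UMIs. In the epithelial gate it was seen in 2.28% and 2.65% of cells at 26682 and 27207 UMIs. Any droplet can hold some free RNA, and its part in these few UMIs was not tested. Epithelial-gate cells left out as likely doublets, described further on, held Slc16a3 at 51.9 CPM in CEP and 28.7 CPM in Vehicle. Slc16a1, which encodes MCT1 and carries lactate both ways, had its highest level in the epithelial gate, at 33.0 and 32.2 CPM. Slc16a1 gave 96.2% and 96.3% of the pair's UMIs in the epithelial gate and 0.43% and 0.25% in the neutrophil gate, so the gene that gave nearly all lactate transporter RNA was not the same in epithelial cells and leukocytes.

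The hexokinases, which trap glucose by adding phosphate, differed between gates as a set. Hk3, the isoenzyme of myeloid cells, was at 76.5 and 100.3 CPM in the neutrophil gate and 52.7 and 63.2 CPM in the macrophage gate. It had 10 UMIs in the CEP epithelial gate and 0 in the Vehicle epithelial gate, where 3 counts would be 0.921 CPM. Hk2, the inducible hexokinase that HIF raises in many cells, was highest in the neutrophil gate at 90.9 and 111.5 CPM and gave 48.2% and 42.7% of hexokinase UMIs in the macrophage gate. Hk1, the housekeeping form, gave 62.5% and 68.1% in the epithelial gate and 18.1% and 18.0% in the macrophage gate.

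Phosphofructokinase commits glucose to glycolysis and has 3 subunit genes. Pfkl, the liver-type subunit, was highest in the epithelial gate at 203.8 and 176 CPM, where it gave 78.5% and 79.2% of the family's UMIs. Pfkp, the platelet-type subunit, gave 59.6% and 64.3% in the neutrophil gate and 84.1% and 78.3% in the dendritic gate. Pfkm, the muscle-type subunit, was at 11.8 and 7.98 CPM in the epithelial gate and below that in the other gates. Pfkfb3, which makes the sugar phosphate that turns phosphofructokinase on, was at 230.1 and 294 CPM in the neutrophil gate, 60.6 and 65.6 CPM in the macrophage gate and 8.48 and 9.82 CPM in the epithelial gate. Its relative Pfkfb4 was at 70.7 and 80.4 CPM in the neutrophil gate and at 22.3 and 24.7 CPM in the macrophage gate.

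**Figure D2:**
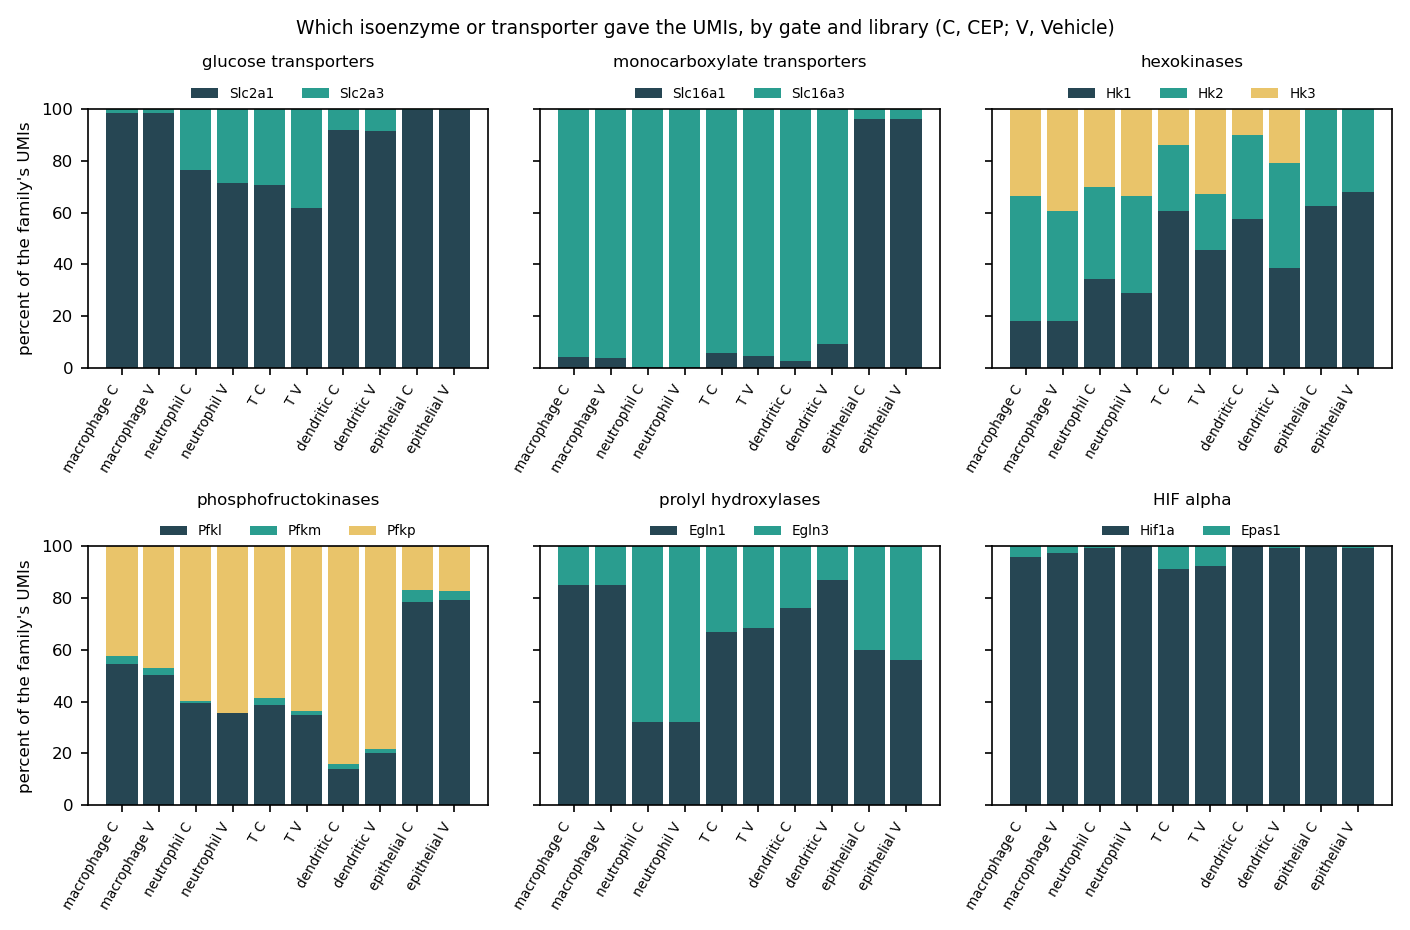
Share of each family's UMIs given by each of its genes (stacked bars, percent), by gate and library (C, CEP; V, Vehicle). The lactate transporter passes from Slc16a3 in the leukocyte gates to Slc16a1 in the epithelial gate, Hk3 is near 0 in the epithelial gate, and Egln3 outweighs Egln1 in the neutrophil gate only.

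The enzymes of the lower pathway were abundant in every gate and spread less between them. Ldha, lactate dehydrogenase A (chromosome 7, 46841475 to 46855627), was highest in the neutrophil gate at 1975 and 2097 CPM and lowest in the dendritic gate (CEP, 1082 CPM) or the epithelial gate (Vehicle, 1133 CPM). Gapdh was highest in the neutrophil gate at 1643 and 1744 CPM, and lowest in the dendritic gate at 787 and 842 CPM. Pkm, pyruvate kinase of the muscle type, was at 1784 and 1858 CPM in the neutrophil gate. In CEP the epithelial gate came next with 1783 CPM of Pkm, and the levels of the pair of gates were within counting error. Aldoa, Tpi1 and Pgam1 were also highest in the neutrophil gate in both libraries, Eno1 in the epithelial gate, and Pgk1 in the T cell gate at 680 and 544 CPM. Aldoc, the brain-type aldolase, was highest in the macrophage gate at 46.3 and 51.2 CPM but gave only 3.87% and 3.90% of aldolase UMIs there. The gate with the highest level of Gpi1, Hk1, Pfkp, Pdk1 or Ndrg1 differed between libraries, and for the first 4 of these the leading gates were at most 1.29-fold apart. Pdk1, which holds back the use of pyruvate by the mitochondria, lay between 10.7 and 15.99 CPM in all gates and libraries.

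Of the HIF alpha subunits, Hif1a (chromosome 12, 73901375 to 73947530) was at 408 and 439 CPM in the neutrophil gate, 313 and 401 CPM in the T cell gate, 203 and 192 CPM in the macrophage gate and 86.6 and 88.7 CPM in the epithelial gate. Hif1a gave 91.4% or more of the UMIs of the pair in every gate, and Epas1, which encodes HIF-2 alpha, gave the rest. HIF-1 alpha is controlled mainly by the destruction of its protein, which these counts do not measure. Egln3, a prolyl hydroxylase that HIF itself induces, was at 249.6 and 254 CPM in the neutrophil gate and 14.6 and 15.4 CPM in the macrophage gate. Egln3 gave 67.7% of the UMIs of Egln1 and Egln3 in the neutrophil gate of either library, and 14.9% and 15.1% in the macrophage gate. Egln1, the main oxygen sensor, was spread more evenly, from 46.1 and 78.8 CPM in the dendritic gate to 119 and 122 CPM in the neutrophil gate.

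The hypoxia targets formed 2 groups by gate. Hilpda, which blocks fat breakdown at lipid droplets, was at 1377 and 1531 CPM in the neutrophil gate and 41.1 and 46.04 CPM in the epithelial gate. Bnip3, a receptor that hands mitochondria to autophagy, was at 593 and 652 CPM in the neutrophil gate and 175 and 199 CPM in the macrophage gate. Ero1l, an oxidase that forms disulfide bonds in the endoplasmic reticulum, was at 554 and 683 CPM in the neutrophil gate and 98.2 and 105 CPM in the macrophage gate. Bnip3l, Ankrd37, P4ha1 and Kdm3a were also highest in the neutrophil gate in both libraries. The other group had its highest level in the epithelial gate in both libraries. Car9, a carbonic anhydrase at the cell surface and a widely used hypoxia marker, was at 67.3 and 61.1 CPM in the epithelial gate and 7.78 and 7.16 CPM in the macrophage gate. Adm, which encodes the peptide adrenomedullin, was at 44.5 and 31.0 CPM in the epithelial gate, 2.18-fold and 2.06-fold the T cell gate, the next in order. P4ha2, a collagen prolyl hydroxylase, was at 21.7 and 14.1 CPM. Its lead was 3.34-fold over the neutrophil gate in CEP. In Vehicle it was only 1.155-fold over the T cell gate, on 46 against 13 UMIs. Ndrg1, a stress-response gene, was highest in the epithelial gate in CEP (248.8 CPM) and in the dendritic gate in Vehicle (200.5 CPM). The Vehicle epithelial value of Ndrg1 was 131 CPM, and it rests on which cells were kept, as described further on.

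Hypoxia targets differed in how many cells shared their RNA. In the CEP epithelial gate Adm and Hk2 had nearly equal levels, 44.5 and 43.5 CPM, but Adm was seen in 29.1% of cells and Hk2 in 58.0%. In the CEP neutrophil gate Hilpda, at 1377 CPM, was seen in 57.2% of cells, whereas Slc16a3, at 1132 CPM, was seen in 74.7%. The RNA of Adm and Hilpda was thus held by fewer cells than that of genes of like level in the same gate.

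To see whether glycolytic genes went with hypoxia targets from cell to cell, each cell was thinned to 1000 UMIs and cells with fewer were left out, which removed 237 CEP and 214 Vehicle cells of the neutrophil gate and 31 and 27 of the macrophage gate. Cells were then placed by their summed UMIs of the 11 hypoxia targets. In the neutrophil gate 37.9% of CEP cells and 41.5% of Vehicle cells had 4 or more such UMIs, against 8.23% and 8.28% in the macrophage gate. The macrophage and neutrophil gates differ in their thinned hypoxia levels, then, and the libraries differ little.

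Glycolytic enzymes climbed with the hypoxia targets in each of the 3 large gates. In neutrophil-gate cells with 0 hypoxia-target UMIs the enzymes made up 6.61 (CEP) and 6.48 (Vehicle) UMIs per 1000, and in those with 4 or more they made up 18.1 (interval 17.8 to 18.5) and 17.5 (interval 17.2 to 17.8). In the macrophage gate they went from 6.19 and 6.39 to 12.2 and 13.0 UMIs per 1000. In the epithelial gate they went from 7.20 and 5.85 to 18.6 and 16.7, with 71 and 3 cells in the highest bin. Cells without hypoxia-target UMIs thus lay close together in all 3 gates. Those with 4 or more lay higher in the neutrophil gate, and in the CEP epithelial gate, than in the macrophage gate. The highest bin has no upper bound, so its cells are not matched between gates for hypoxia-target UMIs. In cells with 3 such UMIs the enzymes made up 11.05 (CEP) and 11.11 (Vehicle) per 1000 in the neutrophil gate. They made up 9.64 and 10.69 in the macrophage gate and 14.2 and 12.5 in the epithelial gate, the last over 6 cells. Over cells, Pearson's r between the 2 sums was 0.67 and 0.63 in the neutrophil gate (1412 and 1891 cells), 0.39 and 0.41 in the macrophage gate (4108 and 4567 cells) and 0.57 and 0.53 in the epithelial gate (789 and 113 cells). These cells share 1 library and 1 fixed depth, and the coefficients are descriptions.

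**Figure D3:**
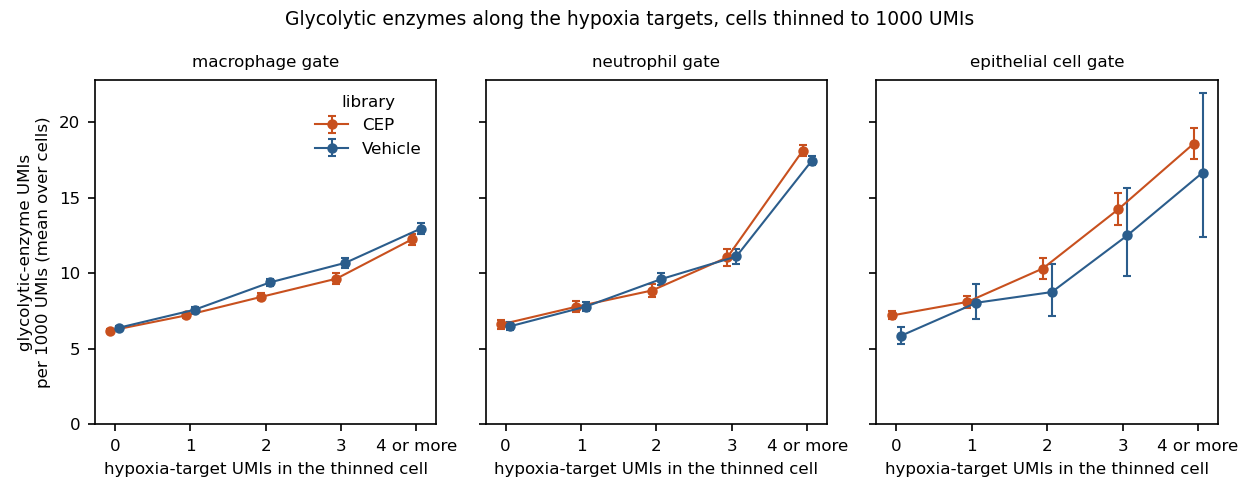
Mean UMIs of the 16 glycolytic enzymes per 1000 UMIs (vertical axis) in cells with 0, 1, 2, 3 or at least 4 UMIs of the 11 hypoxia targets (horizontal axis), for 3 gates and both libraries; bars are 95% Poisson intervals. The values climb from bin to bin in each gate, and the neutrophil gate reaches 18.1 in CEP and 17.5 in Vehicle.

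The genes did not climb alike. In the neutrophil gate Ldha went from 1054 CPM in CEP cells with 0 hypoxia-target UMIs to 3637 in those with 4 or more, and from 880 to 3483 in Vehicle. Hk2 went from 22.4 to 215.0 in CEP and from 30.0 to 229 in Vehicle. Slc2a1 went from 279 to 1060 in CEP and from 319 to 974 in Vehicle. Each of these 3 genes was thus several times higher in the hypoxia-rich cells of either library. Pfkfb3 went from 141 to 549 in CEP and from 100.8 to 529 in Vehicle, and Egln3 from 138 to 473 and from 95.4 to 505. Slc16a3 did not climb, with levels from 1516 to 1256 in CEP and from 1248 to 1115 in Vehicle, with intervals of 1382 to 1659 against 1163 to 1355 in CEP and overlapping intervals of 1136 to 1368 against 1042 to 1191 in Vehicle. The lactate exporter was therefore high in neutrophil-gate cells with or without hypoxia-target RNA. Pfkfb4 went from 93.0 to 61.7 in CEP and from 109 to 68.8 in Vehicle, with overlapping intervals in either library, and it is a textbook HIF target. Hif1a went from 365 to 578 and from 384 to 534.

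In the macrophage gate Slc16a3 did climb, from 85.4 to 281 in CEP and from 99.3 to 219.6 in Vehicle. Slc2a1 went from 105 to 245.6 and from 101 to 328 there, and Egln3 from 5.16 to 50.3 and from 3.02 to 79.4. Hk3 stood at 49.9 and 71.0 in CEP and at 55.4 and 79.4 in Vehicle, with overlapping intervals. The difference between gates in Slc16a3 was not tested.

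Among the 11 hypoxia targets, the correlation of each with the sum of the other 10 in the neutrophil gate was highest for Bnip3 (r of 0.51 in CEP and 0.43 in Vehicle), Hilpda (0.50 and 0.49) and Ero1l (0.48 and 0.46). The same coefficient was 0.13 and 0.12 for Kdm3a, 0.17 and 0.14 for Ankrd37 and 0.16 and 0.13 for Adm, which were seen in fewer thinned cells. In the epithelial gate the coefficient was 0.40 in CEP and 0.01 in Vehicle for Ero1l, 0.37 and 0.29 for Bnip3, 0.36 and 0.08 for Ndrg1, and 0.17 and 0.35 for P4ha2, which led among the 113 Vehicle cells. Among those 113 cells a UMI of Ero1l was seen in 3.54% and of P4ha2 in 2.655%, and cells marked as likely doublets had been left out. Whether the order of the epithelial targets differed between the libraries cannot be told from so few cells.

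Genes outside the 38 were ranked by the lower of the 2 libraries' r with the hypoxia-target sum over the same cells. In the neutrophil gate, over 2019 genes, the order was led by Fth1 (ferritin heavy chain, 0.47 in either library), P4hb (0.51 and 0.47), Bsg (0.49 and 0.45), Fam162a, Basp1, Higd1a, Cstb, Mif, Tmem189 and Hmox1. Bsg encodes basigin, the chaperone that lactate exporters need at the cell surface, and Fam162a and Higd1a are themselves textbook hypoxia targets. In the macrophage gate, over 2415 genes, Arg1 led (0.31 and 0.33), ahead of Fth1, Lgals3, Srgn, Mmp12, Vim, Mif, Ftl1, Tnfrsf9 and Vegfa. Arg1 encodes arginase, and Vegfa the vessel growth factor that HIF induces. In the epithelial gate, over 2364 genes, the metallothioneins Mt1 (0.46 and 0.23) and Mt2 (0.35 and 0.21) led, then Higd1a, Gas5, Lgals3, Fam162a, Mif, 2410006H16Rik, Ftl1 and Zmiz1. The lower r of these went from 0.20 for Higd1a to 0.15 for Zmiz1. The Vehicle r in this gate rests on 113 cells, of which 3 had 4 or more hypoxia-target UMIs. Fth1, Mif, Higd1a, Fam162a, Lgals3 and Ftl1 thus recurred in more than 1 gate.

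The comparison of CEP with Vehicle asks whether glycolytic and hypoxia genes differed with treatment within each kind of cell. A gene is counted as higher or lower here when the lower of the libraries' levels was at most 0.8 of the higher, among genes with at least 50 UMIs in the gate over both libraries. Such a gene is called past the fold. Ratios are given as log2 of CEP over Vehicle with 0.5 UMI added to each sum. A lower level can come from fewer cells of a subtype or from less RNA of the gene per cell, which these sums do not separate.

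In the macrophage gate, which held the most UMIs, 37 of the 38 genes were within the fold. The only gene past it was Epas1, which encodes HIF-2 alpha (chromosome 17, 86753700 to 86833410), at 8.52 CPM in CEP (367 UMIs) and 4.81 CPM in Vehicle (255 UMIs), a log2 ratio of 0.82 (0.59 to 1.06). Of all 12314 genes measured in this gate 8.96% were higher in CEP and 4.71% lower, and 1 of 38 and 0 of 38 are smaller shares than these. The median log2 ratio of the 38 genes was -0.08, against 0.02 for all genes, and 12 of the 38 lay above 0. The enzymes kept within a narrow band: Gapdh was at 1336 and 1410 CPM (-0.08), Ldha at 1254 and 1379 CPM (-0.14) and Pkm at 1060 and 1110 CPM (-0.07). The lowest ratios were those of Ankrd37, at 26.2 and 32.6 CPM (-0.32), P4ha2, at 3.83 and 4.64 CPM (-0.28, with an interval that held no difference), and Hk3, at 52.7 and 63.2 CPM (-0.26). Epas1 kept a ratio between 0.74 and 0.85 over the alternatives run for it, likely doublets kept in, stricter gates and thinned cells among them. Endothelial markers, whose cells usually hold much Epas1, summed to 33.3 CPM in CEP and 33.2 CPM in Vehicle in this gate. Epithelial-marker RNA in this gate was 208.6 CPM in CEP and 55.8 CPM in Vehicle, and without the cells that carried epithelial or collagen UMIs the ratio of Epas1 was 0.85.

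In the neutrophil gate 33 of the 38 genes were measured, 1 was higher in CEP and 3 were lower, against 31.2% and 7.93% of 7972 genes. Slc2a3 was at 169 CPM in CEP and 246.3 CPM in Vehicle, a log2 ratio of -0.55 (-0.68 to -0.42). Hk3 was at 76.5 and 100.3 CPM (-0.39, -0.59 to -0.19), and Pfkfb3 at 230.1 and 294 CPM (-0.35, -0.47 to -0.24). Adm was the gene above the fold, at 15.7 and 11.5 CPM, with an interval that held no difference (-0.06 to 0.96). The median of the 33 was -0.10, against 0.09 for all genes. The CEP neutrophil gate also held 1531 CPM of fibroblast-marker RNA, against 0.718 CPM in Vehicle, and 818 CPM of epithelial-marker RNA against 134.5. Without the cells that carried such UMIs, Slc2a3 stayed past the fold at -0.38, whereas Hk3 (-0.21) and Pfkfb3 (-0.19) did not, and the median of the genes was -0.01. The shares of all genes past the fold were not recounted without those cells. With each cell given equal weight Slc2a3 was at -0.15, Hk3 at -0.12 and Pfkfb3 at -0.11, all within the fold. P4ha2 had 29 UMIs in CEP and 0 in Vehicle, which is at least 12.05-fold higher in CEP when 3 counts stand for the 0, and 3 UMIs against 0 without those cells. The glycolytic genes of neutrophils, whose levels are the highest of the 38 in most cases, thus lay within the fold with few exceptions.

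**Figure D4:**
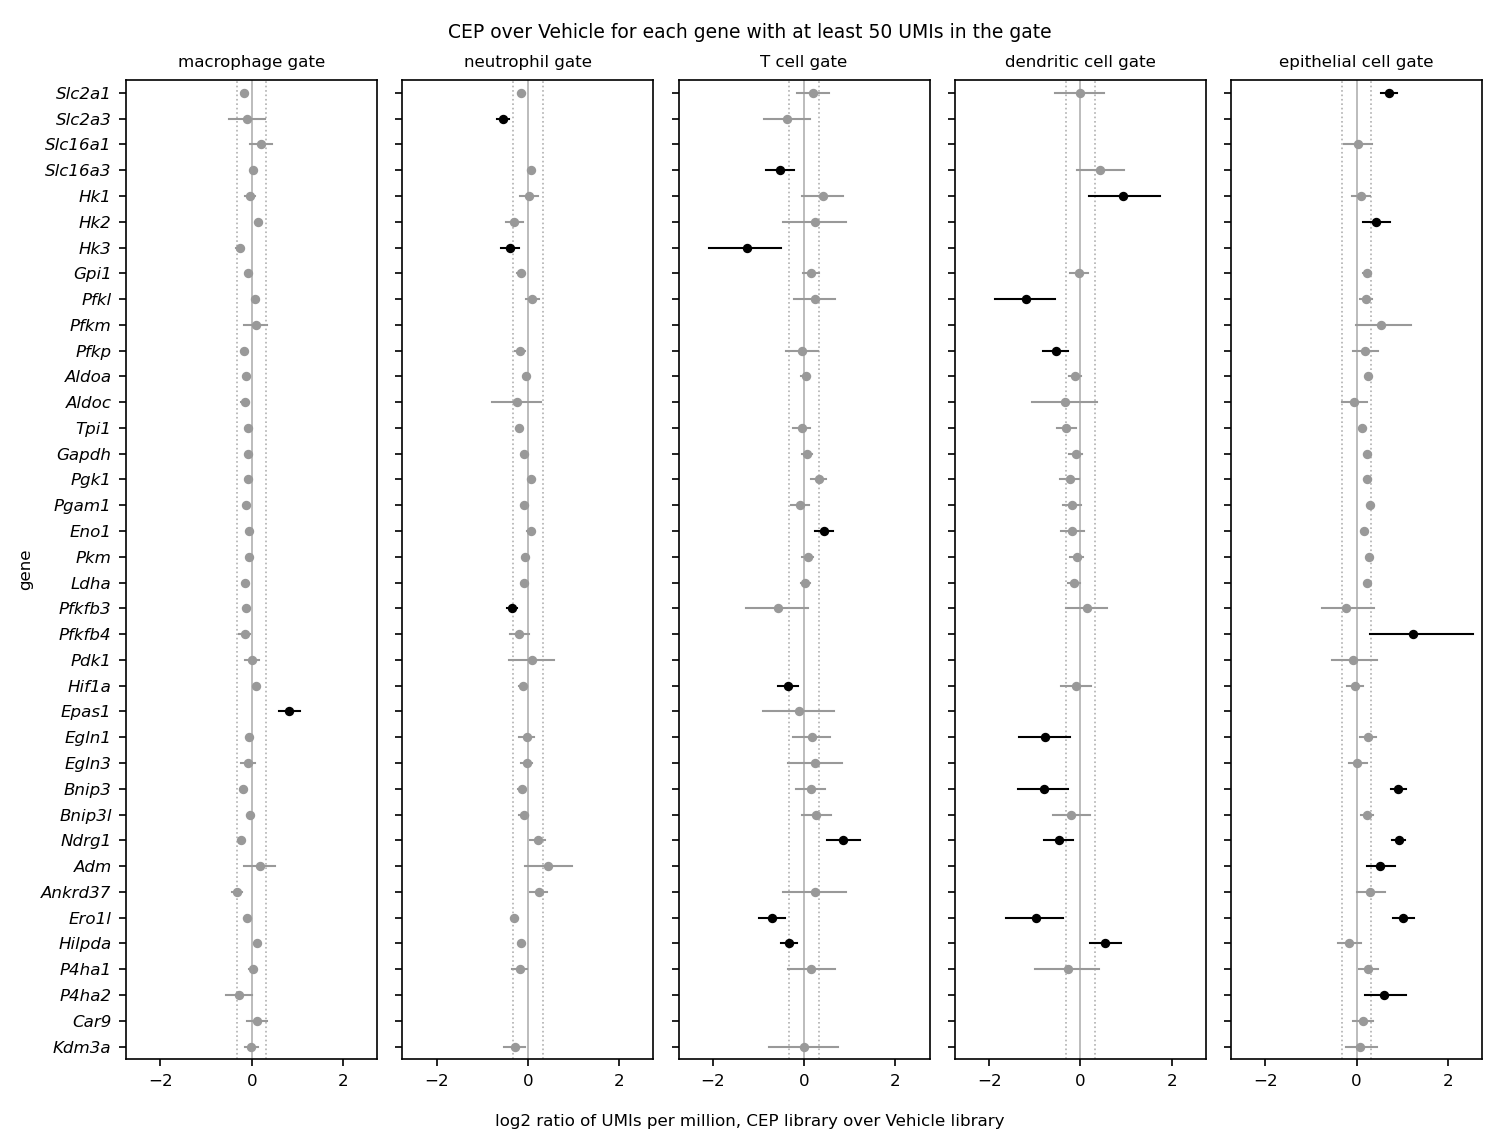
Log2 ratio of CEP over Vehicle (horizontal axis) for each gene with at least 50 UMIs in a gate (rows), with its 95% counting interval; black marks a ratio past the fold (dotted lines) whose interval excludes no difference. The macrophage panel has 1 black point, Epas1 at 0.82, and the epithelial panel, drawn without cells marked as likely doublets, has 8.

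The comparison in the epithelial gate turned on 20 Vehicle cells. A doublet score had marked the highest 8% of cells in each library as likely doublets, and these were left out of all values above. In the epithelial gate that took out 45 of 834 CEP cells (5.40%) and 20 of 133 Vehicle cells (15.04%). The 20 Vehicle cells held 1442 CPM of Ndrg1, against 131 CPM in the 113 cells kept, 411 CPM of Ero1l against 53.1, 470 CPM of Bnip3 against 91.8 and 374 CPM of Slc2a1 against 94.2. Ptprc stood at 7.18 CPM in the 20 cells and 2.46 CPM in the 113, the 8 macrophage markers at 106 and 35.3 CPM in all, the 8 neutrophil markers at 205 and 200.4 CPM and the 8 epithelial markers at 4563 and 8522 CPM. The 45 CEP cells had Ptprc at 46.2 CPM, macrophage markers at 406 CPM, neutrophil markers at 3802 CPM and epithelial markers at 4502 CPM. Of the 20 cells 40.0% had 4 or more hypoxia-target UMIs after thinning. Whether the 20 cells were doublets was not tested.

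Without the marked cells, 9 of the 34 genes measured in the epithelial gate were higher in CEP and 0 were lower, against 11.1% and 13.1% of 10740 genes. Pfkfb4 was at 6.09 and 2.46 CPM (1.23, 0.29 to 2.55), Ero1l at 108 and 53.1 CPM (1.01, with a lower bound of 0.80), Bnip3 at 174 and 91.8 CPM (0.92, 0.75 to 1.09) and Ndrg1 at 248.8 and 131 CPM (0.92, 0.78 to 1.07). Slc2a1 was at 154 and 94.2 CPM (0.71, 0.54 to 0.88) and P4ha2 at 21.7 and 14.1 CPM (0.60, 0.18 to 1.09), and Adm, Hk2 and Pfkm completed the 9. The median of the 34 was 0.23, against -0.03 for all genes, and 29 of the 34 lay above 0.

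With the marked cells kept in, 2 of 35 genes were higher in CEP (Pfkfb4 and Pfkm) and 3 were lower (Pfkfb3, Slc16a3 and Ndrg1), against 8.56% and 13.2% of 10869 genes, and the median was 0.05. Ero1l was then at 109 and 105 CPM (0.05, -0.10 to 0.20), Slc2a1 at 154 and 135 CPM (0.19, 0.06 to 0.33) and Adm at 44.0 and 43.5 CPM (0.01, -0.22 to 0.26). Bnip3 was at 177 and 147 CPM (0.27, 0.14 to 0.40). Ndrg1 turned round, at 250 CPM in CEP and 322 CPM in Vehicle (-0.37, -0.46 to -0.28). The summed level of the 11 hypoxia targets was 1061 CPM in CEP and 730.3 CPM in Vehicle without the marked cells, and 1072 and 1118 CPM with them. The share of cells with 4 or more hypoxia-target UMIs was 8.999% (7.09 to 11.2) in CEP and 2.65% (0.551 to 7.56) in Vehicle without them, and 8.99% (7.14 to 11.1) and 8.27% (4.20 to 14.3) with them. The call of higher epithelial hypoxia genes in CEP therefore held only with these cells left out. Pfkfb4 was the only one of the 8 genes clear of their interval without the marked cells that was still past the fold in the same direction with them, at 6.29 and 3.15 CPM (0.95, 0.15 to 1.98), and it rests on 12 Vehicle UMIs.

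**Figure D5:**
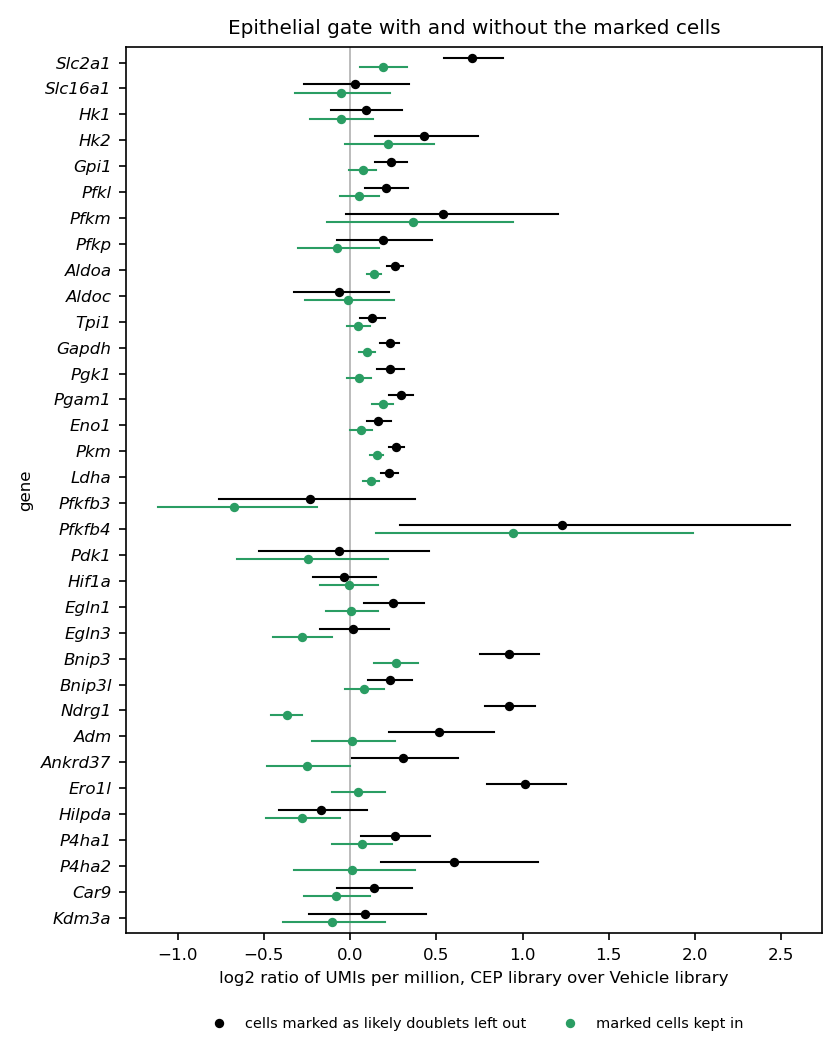
Log2 ratio of CEP over Vehicle in the epithelial gate (horizontal axis, 95% counting intervals) for each gene measured both ways (rows), with the cells marked as likely doublets left out (black) or kept in (green). Ndrg1 passes from 0.92 to -0.37 and Ero1l from 1.01 to 0.05, and most green points lie nearer to 0 than the black ones.

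The glycolytic enzymes of the epithelial gate also came nearer to 0 with the marked cells, with a median of 0.23 without them and 0.07 with them. Without the marked cells 14 of 15 measured enzymes lay above 0, with Pkm at 1783 and 1482 CPM (0.27) and Ldha at 1325 and 1133 CPM (0.23). With them 12 of 15 did, with Pkm at 0.15, Ldha at 0.12, Pgk1 at 0.05 (from 0.23) and Hk1 at -0.05 (from 0.09). Hif1a was at 86.6 and 88.7 CPM (-0.04) and Egln3 at 74.5 and 73.4 CPM (0.02) without the marked cells, and Egln3 was at -0.28 with them.

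In the T cell gate 30 of the 38 genes were measured, with 3 higher in CEP and 7 lower, against 17.3% and 17.4% of 4930 genes. Ndrg1 was at 179 and 98.8 CPM (0.86, 0.49 to 1.23) and Eno1 at 539 and 400 CPM (0.43, 0.24 to 0.62). Hk3 was at 22.7 and 54.6 CPM (-1.24, -2.08 to -0.51), Ero1l at 175 and 285 CPM (-0.70), Slc16a3 at 162 and 233 CPM (-0.52), Hif1a at 313 and 401 CPM (-0.35, -0.58 to -0.13) and Hilpda at 498 and 630.3 CPM (-0.34). Epithelial-marker RNA in this gate was 826 CPM in CEP and 41.4 CPM in Vehicle, and fibroblast-marker RNA 449 and 1305 CPM. Eno1 has its highest level in the epithelial gate in both libraries and Ndrg1 in CEP. Eno1 kept its direction when cells with epithelial or collagen UMIs were left out of the T cell gate. How much of either ratio came from this RNA was not tested. The neutrophil-marker RNA of this gate stood higher in Vehicle, as given above, and all 5 of these lower genes have their highest level in the neutrophil gate. The others past the fold, Hk1 higher and Slc2a3 and Pfkfb3 lower, had intervals that held no difference. Without cells in which S100a8 and S100a9 gave at least 5% of UMIs the counts were 10 higher and 2 lower. The shares of all genes were not recounted for those cells, whose epithelial-marker RNA was 944.5 CPM in CEP and 49.4 CPM in Vehicle. In them Slc16a3 turned to 0.41 and Hk3 was left with 3 and 7 UMIs, whereas Hif1a stayed at -0.34, Eno1 at 0.43 and Ndrg1 at 0.93. Without cells that met another gate Ndrg1 was at -0.04. Ero1l turned to 0.37 with stricter gates, 0.18 in thinned cells and 0.32 with each cell given equal weight, and thinned cells left 0 genes higher and 0 lower. Hif1a and Eno1 kept their direction under every alternative run for them, at -0.25 and 0.44 without the cells of another gate.

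In the dendritic gate, with 91 and 96 cells, 24 genes were measured, with 3 higher in CEP and 7 lower, against 14.8% and 14.7% of 4644 genes. Pfkl was at 31.9 and 73.0 CPM (-1.18, -1.87 to -0.56), Ero1l at 36.2 and 72.0 CPM (-0.98), Bnip3 at 49.4 and 86.6 CPM (-0.80), Egln1 at 46.1 and 78.8 CPM (-0.76), Pfkp at 192 and 280.2 CPM (-0.54, -0.82 to -0.27) and Ndrg1 at 144 and 200.5 CPM (-0.48). Hk1 was at 45.0 and 23.4 CPM (0.94, 0.19 to 1.74) and Hilpda at 193 and 132 CPM (0.55, 0.22 to 0.88). The ratios of Slc16a3 (0.44) and Aldoc (-0.34) completed the counts, with intervals that held no difference. The median of the 24 was -0.18, against -0.01 for all genes. The counts were 1 higher and 0 lower in thinned cells and 1 and 2 with a minimum of 200 UMIs, stricter gates gave 11 lower, and likely doublets kept in gave 1 higher. These sums rest on few UMIs, 29 and 75 for Pfkl, and the gate mixes subtypes: Ccr7, a marker of mature dendritic cells, was at 1115 and 848 CPM and Cd209a at 65.9 and 84.7 CPM. The part of subtype shares in these differences was not tested.

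Other genes of the pathways, from lists chosen with earlier results of these data known, were counted in the same way. In the macrophage gate, of 16 measured genes among 24 other glycolytic genes 0 were higher in CEP and 1 was lower, Pfkfb1 at 0.604 and 1.13 CPM. Of 22 measured among 25 other hypoxia targets 4 were higher and 0 lower, against the 8.96% and 4.71% of all genes, with a median log2 ratio of 0.13 and 17 of 22 above 0, whereas the 38 genes had a median of -0.08. The 4 were led by the collagen-modifying enzymes Plod2 at 1.72 and 0.717 CPM (1.251) and Loxl2 at 0.929 and 0.415 CPM (1.15) and the creatine transporter Slc6a8 at 8.80 and 6.21 CPM (0.50). Collagen-producing cells carry Plod2 and Loxl2, and fibroblast-marker RNA in the gate was 43.0 CPM in CEP and 27.2 CPM in Vehicle, whose part in these ratios was not tested. None of 9 measured HIF regulators, 20 tricarboxylic acid cycle genes or 8 pentose phosphate genes was past the fold in either direction in this gate.

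In the neutrophil gate 3 of 17 measured other hypoxia targets were higher in CEP and 2 lower, against 31.2% and 7.93% of all genes. Lox and Loxl2, extracellular enzymes that crosslink collagen, had 76 and 62 UMIs in CEP and 0 in Vehicle, in the gate whose CEP cells held the fibroblast RNA. Anxa1, an anti-inflammatory lipid-binding protein, was at 1149 and 1545 CPM (-0.43) and Gys1, glycogen synthase, at 35.6 and 47.8 CPM (-0.42). Of 8 measured other glycolytic genes 3 were higher in CEP and 1 lower, against the same 31.2% and 7.93% of all genes. Among them Eno3 was at 15.9 and 4.13 CPM (1.92) and Adpgk at 81.3 and 128.5 CPM (-0.66). Of the 13 mitochondrially encoded genes 12 were higher in CEP in this gate, beside 31.2% of all genes. The 13 summed to 6440 CPM in CEP and 4221 CPM in Vehicle, with a median log2 ratio of 0.89. In the epithelial gate they summed to 11491 and 10992 CPM. The part of the epithelial and fibroblast RNA of the CEP neutrophil gate in the mitochondrial ratios was not tested. Of 19 measured tricarboxylic acid cycle genes 7 were higher, a share near that of all genes, and 3 of the 7 had an interval that excluded no difference.

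In the epithelial gate 10 of 21 other hypoxia targets were higher in CEP and 2 lower without the marked cells, against 11.1% and 13.1% of all genes. The counts were 4 and 3, against 8.56% and 13.2% of all genes, with the marked cells kept in. Higd1a, a mitochondrial hypoxia protein, was at 184 and 91.8 CPM (1.003) without them and 185 and 133 CPM (0.48) with them. Vegfa was at 71.6 and 44.2 CPM (0.69) without them and at 0.19 with them. Of 12 measured other hypoxia targets in the T cell gate 1 was higher in CEP and 2 were lower, against 17.3% and 17.4% of all genes. Of 10 in the dendritic gate 0 were higher and 4 lower, against 14.8% and 14.7% of all genes. Genes of tissue digestion and heat, which sample handling can raise, had medians of 0.16 in the macrophage gate, 0.13 in the neutrophil gate, -0.14 in the T cell gate, 0.31 in the dendritic gate and 0.18 in the epithelial gate, and their part in the differences above was not tested.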

How the data were processed

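The deposited matrices hold raw UMI counts per gene and cell barcode, made by the authors with Cell Ranger, which the file headers give as version 7.1.0 and the submitters' processing notes as 5.0.1, on the mm10 build. The treatment of intronic reads is not stated there. The CEP matrix held 9621 barcodes and 88721774 UMIs, and the Vehicle matrix 9989 barcodes and 81208647 UMIs.

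Barcodes needed 200 genes or more and no more than 15% of UMIs from mitochondrial genes. The highest 8% of Scrublet scores (scanpy 1.11.5) were left out in each library, since the automatic threshold called 1 and 0 cells. This left 8828 and 9210 cells, of which 39 and 36 met more than 1 gate and 2029 and 2076 met none. UMIs were summed per gate and library and given per 1000000 UMIs (CPM). Intervals are at 95%. The ratio function was tested on simulated data. Genes are named by this rule: all 38 are accounted for; per gate, those past the fold (a ratio of 0.8 or beyond, either way) whose interval excludes no difference, at most 6 each way; 14 defining genes in their highest gate; up to 3 each way from other lists; and the 10 genes that best follow the hypoxia sum. Members and lists were chosen with earlier results of these data known. Positions are from GENCODE M21 on GRCm38, matched by Ensembl identifier, and promoter sequences from RefSeq on GRCm38.p6. Alternatives changed the cells kept, the gates, the depth, the weighting of cells, the denominator, the minimum of UMIs and the fold. Python 3.11.15, numpy 2.4.6, scipy 1.17.1 and pandas 2.3.3 were used.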

Additional observations from a re-analysis of the deposited data

Results flagged for a closer look

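Ratios of 4 hypoxia targets were past the fold in opposite directions in different gates, each with an interval that excluded no difference, and the differences between gates were not tested. The log2 ratio of Bnip3 was -0.80 in the dendritic gate and 0.92 in the epithelial gate. That of Ero1l was -0.70 in the T cell gate, -0.98 in the dendritic gate and 1.01 in the epithelial gate. That of Hilpda was -0.34 in the T cell gate and 0.55 in the dendritic gate. That of Ndrg1 was 0.86 in the T cell gate, -0.48 in the dendritic gate and 0.92 in the epithelial gate. With the marked cells kept in, the epithelial ratios were 0.27 for Bnip3, 0.05 for Ero1l and -0.37 for Ndrg1. In the T cell gate Ero1l turned to 0.37 with stricter gates, 0.18 in thinned cells and 0.32 with each cell given equal weight, Hilpda to 0.075 in thinned cells, and Ndrg1 to -0.0445 without cells that met another gate.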

How the results depend on the processing

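Of 192 recomputed medians and counts 131 stayed within 1.5 times (counts) or within their interval (medians), and 61 moved. Of 225 recomputed ratios of single genes 182 held, 32 moved and 11 changed sign. Counts of genes are given as higher and lower in CEP. Of the alternatives, only the epithelial gate with likely doublets kept in had its share of all genes recounted, so the other counts have none beside them. Reported values were 1 and 0 in the macrophage gate, 1 and 3 in the neutrophil gate, 3 and 7 in the T cell gate, 3 and 7 in the dendritic gate and 9 and 0 in the epithelial gate. With likely doublets kept in, 4 were higher in the macrophage gate, 6 lower in the neutrophil gate, 5 higher in the T cell gate and 1 higher in the dendritic gate, and the epithelial gate had 2 higher, 3 lower, a median of 0.047 and Ndrg1 at -0.37. All deposited barcodes gave the same 4, 6, 1, 2, 3, 0.047 and -0.37. Stricter gates gave 1 lower (macrophage), 0 higher (neutrophil), 9 higher and 4 lower (T cell, Ero1l at 0.37) and 11 lower (dendritic). Thinned cells gave 2 higher and 2 lower (macrophage), 2 higher and 1 lower with a median of -0.0036 (neutrophil), 0 and 0 (T cell, with Slc16a3 at 0.13, Ero1l at 0.18 and Hilpda at 0.075), 1 higher and 0 lower (dendritic) and a median of 0.37 (epithelial), and 4 genes in place of 7 were highest in the epithelial gate in both libraries. Mean per-cell CPM gave 1 lower (macrophage), 0 lower (neutrophil), 5 higher and 1 lower (T cell, Slc16a3 at 0.11 and Ero1l at 0.32) and 18 higher and 1 lower (epithelial). Less the median of all genes, 1 was lower in the macrophage gate and 7 in the neutrophil gate. Without cells with epithelial or collagen UMIs, 1 was lower (macrophage), 1 lower with a median of -0.0108 (neutrophil) and 4 lower (T cell). Without cells with a Gpnmb UMI 1 was lower in the macrophage gate. Without cells of more than 1 gate, 1 was lower (neutrophil), 2 lower with Slc16a3 at 0.68 and Ndrg1 at -0.0445 (T cell) and 1 lower (epithelial). A minimum of 200 UMIs gave 0 higher (neutrophil), 4 lower (T cell) and 1 higher and 2 lower (dendritic), and no minimum gave 6 higher (neutrophil), 6 higher (T cell), 13 lower (dendritic) and 2 lower (epithelial). A fold of 1.5 gave 0 and 0 (neutrophil), 1 and 2 (T cell) and 1 and 4 (dendritic). Without cells rich in S100a8 and S100a9 the T cell gate had 10 higher and 2 lower, with Slc16a3 at 0.41. The settings that left out cells with epithelial, collagen, Gpnmb or S100 UMIs, and the recounts of the highest gate, were chosen after seeing the data. Where fewer UMIs or cells were used, fewer genes were measured; otherwise the cause was not tested. No paired analysis was possible because each group has 1 library.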
